A study of Mus musculus with 3 samples.

Results

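The genes described here encode 10 members of the purinergic and adenosine signaling system, namely *P2rx4*, *P2rx7*, *P2ry2*, *P2ry6*, *P2ry14*, *Adora2a*, *Adora2b*, *Entpd1*, *Nt5e* and *Ada*. They were taken by gene symbol from the gene probes of the arrays and are 10 of 26840 genes with a symbol. All 10 were on the array, with 21 probes in all. RNA was measured in RAW macrophages, a single mouse macrophage line derived from a tumour, in 3 conditions. In the condition LPS the cells received 50 ng/mL of lipopolysaccharide, an agonist of TLR4. In the conditions CRL1505 + LPS and CRL1506 + LPS, the cells were first kept for 24 h with 50000000 cells/mL of the strain CRL1505 (*L. rhamnosus*) or the strain CRL1506 (*L. plantarum*), washed, and then given the same LPS. They are called "after CRL1505" and "after CRL1506" below. The time with LPS was 12 h by the design of the study and 3 h by the descriptions of the samples. LPS is shared by all 3 conditions, and cells without stimulation were not analysed here. No value below is therefore a response to LPS itself.

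Stressed or activated cells release ATP and UTP, which act on neighbouring cells as danger signals. P2X receptors are cation channels opened by ATP, and P2Y receptors are coupled to G proteins and bind ATP, UTP, UDP or nucleotide sugars. Ectoenzymes on the cell surface split ATP stepwise to adenosine, which acts on receptors of its own and, in macrophages, dampens the release of inflammatory cytokines through cyclic AMP, until it is deaminated to inosine.

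There was 1 array per condition, so each value is a single measurement, no p-value can be given, and the comparisons are ratios counted at a threshold of 2-fold. Of 59305 gene spots, between 48.5% and 55.3% were well above background, by the call of the Feature Extraction software. The 75th percentile of the signal, to which each array was scaled, stood at 743.1 with LPS alone, 517.0 after CRL1505 and 697.9 after CRL1506. The LPS and CRL1506 + LPS arrays were on 1 slide and the CRL1505 + LPS array was alone on another, so for CRL1505 strain and slide cannot be told apart, whereas CRL1506 + LPS and LPS are compared within a slide. Both strains are set against the same LPS array. Of the macrophage markers, 9 of 9 were well above background on all arrays. Markers of other cells were partly above it: 2 of 4 of T cells and 1 of 3 of B cells on each array, 3, 2 and 2 of 3 of neutrophils with LPS alone, after CRL1505 and after CRL1506, 0, 0 and 3 of 3 of fibroblasts in the same order, and 0 of 3 of epithelium. A marker was counted where any of its probes passed, whereas sums use the probe with the highest mean. The summed signal of the fibroblast markers was 0.087, 0.0835 and 0.362 times the 75th percentile in that order. Of these, *Col3a1* passed after CRL1506 by another probe than the one summed, whose log2 signal relative to the 75th percentile was -4.81, -4.94 and -5.94. Their part in the values below was not tested.

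Of the 10 genes, 7 stood well above background with LPS alone, 8 after CRL1505 and 7 after CRL1506 (70.0%, 80.0% and 70.0%), against 58.2%, 52.6% and 57.9% of all genes with a symbol. The receptors *P2rx4*, *P2rx7*, *P2ry2*, *P2ry6* and *Adora2b* and the enzymes *Entpd1* and *Ada* were above it on every array. *Adora2a* was above it on the CRL1505 + LPS array alone, and *P2ry14* and *Nt5e* did not pass that call on any array. The plot of signals by probe shows every one of the 21 probes. Signals of different probes cannot be compared with each other, since probes differ in how well they bind.

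**Figure D1:**
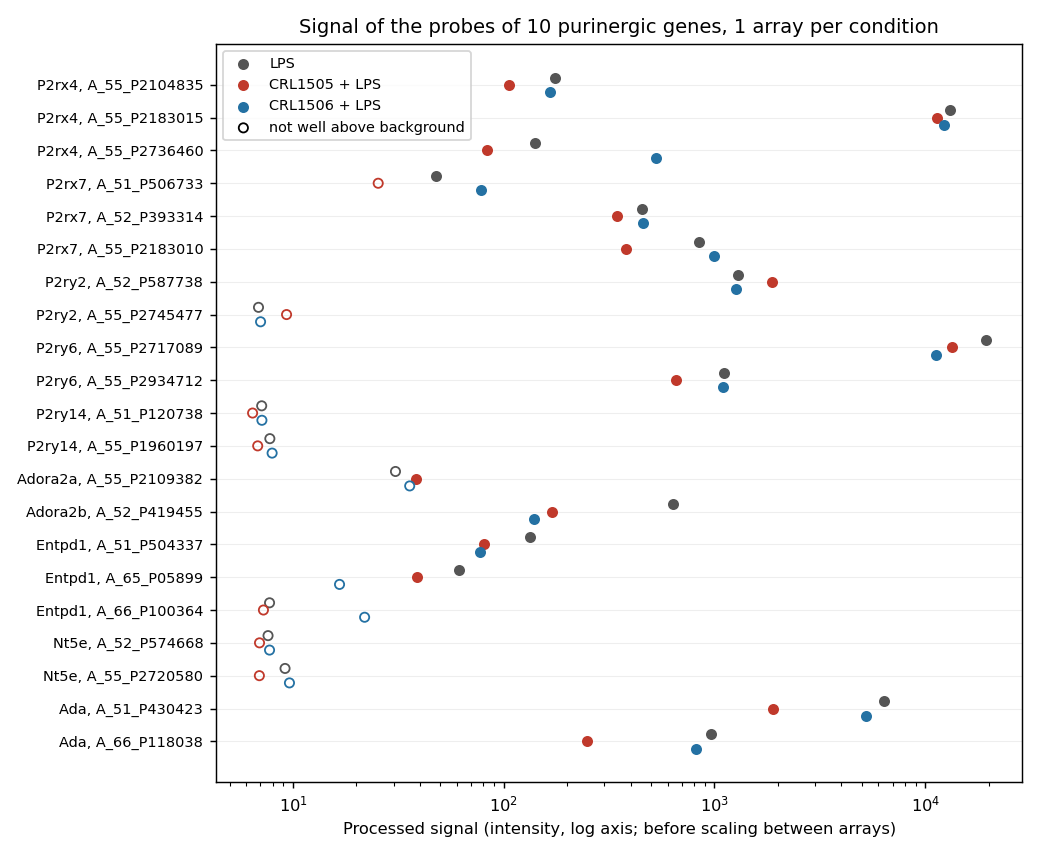
Processed signal (intensity, log axis, before scaling between arrays) of each of the 21 probes of the 10 genes. Grey, red and blue points are the LPS, CRL1505 + LPS and CRL1506 + LPS arrays, 1 point per array, and open points were not well above background. The *Adora2b* probe reads 638.3 on the LPS array and 170.2 and 139.3 on the others, and both *Ada* probes are lowest on the CRL1505 + LPS array.

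Against LPS, 8 of the 10 genes could be compared after CRL1505, and 3 were past 2-fold. *P2ry2*, a receptor for ATP and UTP, was 2.08-fold higher, whereas *Adora2b*, a receptor for adenosine, was 2.61-fold lower and *Ada*, the adenosine deaminase, was 2.35-fold lower. Of all genes compared, 18.3% were past 2-fold in this comparison. For CRL1506 + LPS, 7 genes could be compared and 1 was past 2-fold, against 9.19% of all genes: *Adora2b* was 4.30-fold lower. Between the strains, 8 genes could be compared and 1 was past 2-fold, against 16.5% of all genes: *Ada* was 2.07-fold lower with CRL1505 + LPS than with CRL1506 + LPS. Over the 7 genes measured on both sides, the median size of the log2 ratio was 0.63 after CRL1505 and 0.32 after CRL1506, both against LPS, and 0.72 between the strains, and over all genes it was 0.37, 0.23 and 0.39. The signed medians of the 7 genes were -0.20, -0.19 and 0.48, and those of all genes 0.06, -0.06 and 0.09. The share of higher genes among all those past 2-fold depended on the scaling. It was 54.1% after CRL1505, but 76.1% when arrays were shifted by their median and 20.1% when they were scaled to spike-in probes, which moved the median of all genes to 0.35 and -0.45.

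**Figure D2:**
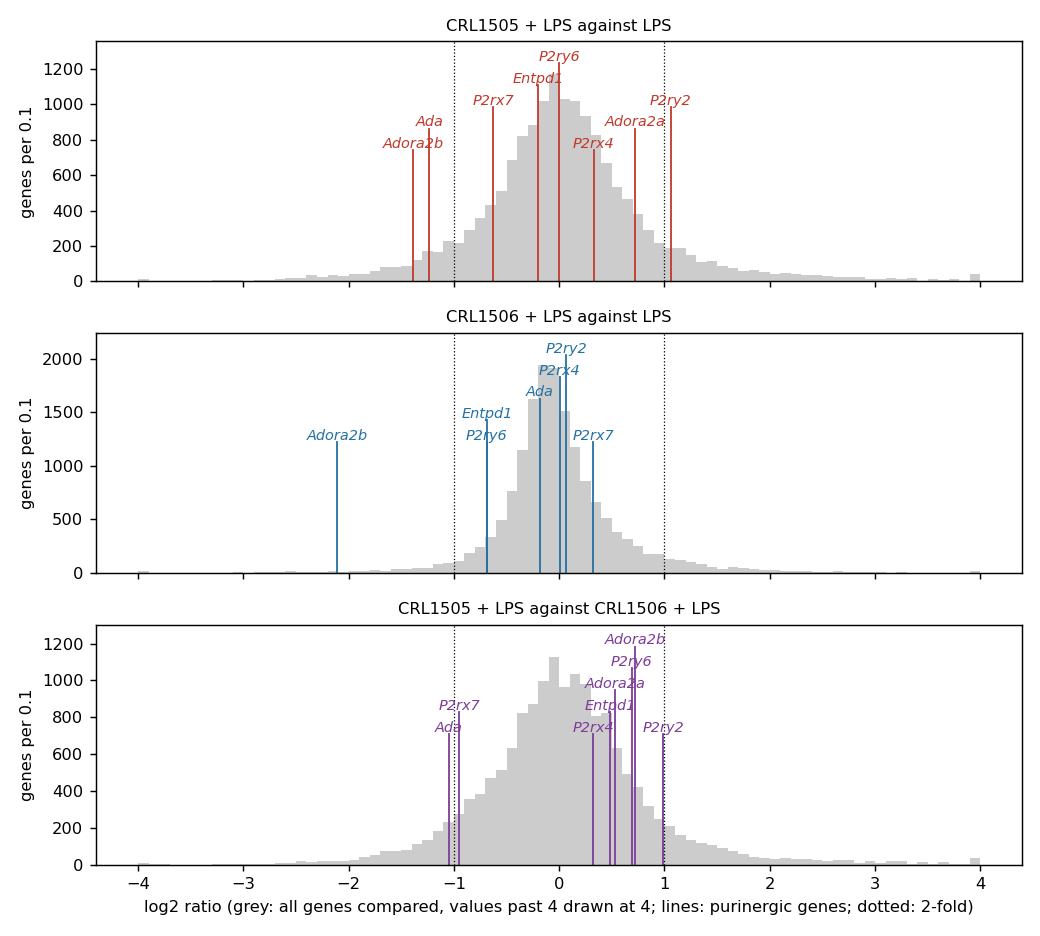
Log2 ratio in each comparison for all genes compared (grey bars, number of genes per 0.1, with values past 4 drawn at 4) and for the purinergic genes (lines with names; *Adora2a* is a lower bound). Dotted lines mark 2-fold. *Adora2b* lies at -1.38 and -2.11 against LPS, and in the lowest panel *Ada* is past 2-fold, at -1.05.

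Among the receptors, the adenosine receptor *Adora2b* differed most from LPS in both treated conditions, by the brightest probe of each gene. This receptor binds adenosine with low affinity and is coupled to the making of cyclic AMP. Its only probe (A_52_P419455) lies on mm9 at chr11:62079096-62079155, on the plus strand. The first 30 of its 60 bases, shown because the *Adora2b* values rest on this probe alone, are all in lower case, as are those of the other probes below.
Adora2b probe A_52_P419455: tatgcctacaggaaccgagacttccgctac
The processed signal was 638.3 ± 64.2 with LPS alone, 170.2 ± 18.2 after CRL1505 and 139.3 ± 15.8 after CRL1506, where ± is the signal error of the Feature Extraction software for 1 spot, here and below, and holds no variation between cultures. Both treated arrays read far below the LPS array. After scaling, the log2 ratio to LPS was -1.38 ± 0.21 after CRL1505 and -2.11 ± 0.22 after CRL1506. Both stayed past 2-fold in 7 of 7 other normalizations, with ranges from -1.89 to -1.09 and from -2.31 to -1.72. Of all genes compared, 4.16% were as far below 0 or farther after CRL1505, and 0.804% after CRL1506. The ratio after CRL1506 is within 1 slide. Between the strains, the log2 ratio of CRL1505 + LPS to CRL1506 + LPS was 0.72 ± 0.22 (1.65-fold), under the threshold, and ranged from 0.32 to 1.22 over the other normalizations. No spot of the probe was uneven, and 0 of the 20 nearest spots were on any array.

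The other adenosine receptor of the set, *Adora2a*, which binds adenosine with high affinity, was near background. Its probe (A_55_P2109382, chr10:74797461-74797520) read 30.63 ± 8.04 with LPS alone, 38.30 ± 7.79 after CRL1505 and 35.78 ± 8.27 after CRL1506. The 3 signals differ by less than the error of each, and the CRL1505 + LPS signal alone was called well above background. Since that array had the lowest 75th percentile, scaling gave a bound of at least 1.65-fold higher than LPS, or a log2 ratio of at least 0.72, which ranged from 0.22 to 1.16 over the other normalizations. Against CRL1506 + LPS the bound was 0.53, with a range from 0.13 to 1.14. For CRL1506 + LPS against LPS no ratio is given. The remaining adenosine receptors *Adora1* and *Adora3* did not pass the background call on any array.

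Of the P2Y receptors, *P2ry2* was higher with CRL1505. The probe in use (A_52_P587738, minus strand) lies at chr7:108145553-108145612 and begins as follows, shown because the call rests on it.
P2ry2 probe A_52_P587738: attccactgtggccaatcctatttcaattt
It read 1291 ± 129 with LPS alone, 1870 ± 187 after CRL1505 and 1271 ± 127 after CRL1506. The CRL1505 + LPS signal was the highest also before scaling. The log2 ratio to LPS was 1.06 ± 0.20 after CRL1505, and 0.07 ± 0.20 after CRL1506. In the other normalizations the first ranged from 0.55 to 1.35 and was past 2-fold in 2 of 7, so its place past the threshold depends on the scaling, whereas its direction did not change. The strains differed by 0.99 ± 0.20 (1.99-fold), with a range from 0.59 to 1.49. A further probe, for the older sequence L14751, was not well above background.

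*P2ry6*, the receptor for UDP, lies beside *P2ry2*, with 33243 bases between their nearest probes. Its bright probe (A_55_P2717089, chr7:108086152-108086211) read 19390 ± 1940 with LPS alone, 13470 ± 1350 after CRL1505 and 11290 ± 1130 after CRL1506. The CRL1506 + LPS signal was the lowest, and with the scaling used here the CRL1505 + LPS signal was level with LPS. The log2 ratio to LPS was -0.00 ± 0.20 after CRL1505 and -0.69 ± 0.20 (1.61-fold lower) after CRL1506, past 2-fold in 0 of 7 other normalizations. They ranged from -0.51 to 0.29, with no settled sign, and from -0.89 to -0.57. Between the strains the log2 ratio was 0.69 ± 0.20, with a range from 0.29 to 1.18, past 2-fold in 1 of 7. The ratio after CRL1506 was not seen in the second probe (A_55_P2934712, chr7:108112251-108112310), which is assigned to the transcript ENSMUST00000208653. It read 1112 ± 112, 660.0 ± 66.3 and 1093 ± 110 on the LPS, CRL1505 + LPS and CRL1506 + LPS arrays, with log2 ratios to LPS of -0.23 ± 0.20 and 0.07 ± 0.20. Between the strains this probe gave -0.29 ± 0.20, the other way from the bright probe. *P2ry14*, the receptor for UDP-glucose, had signals between 6.427 and 7.956 on its 2 probes and no ratio.

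By the brightest probe of each gene, *P2rx7* differed more between the strains than *P2rx4*, the other P2X channel among the 10 genes, of which a dimmer probe described below differed more. The P2X7 channel opens at high ATP and is known for activating the NLRP3 inflammasome and the release of IL-1β in macrophages. It has 3 probes, shown because they read different transcripts and differ in their ratios.
P2rx7 probe A_55_P2183010: ggtcaaaaagctccccaatccatgcaacaa
P2rx7 probe A_52_P393314: ttcacttctctctttaaagggaaccatctt
P2rx7 probe A_51_P506733: tttcggcactggaggaaaatttgacatcat
The brightest (A_55_P2183010, chr5:123105174-123105233, for NM_001038887) read 846.8 ± 85.0 with LPS alone, 381.4 ± 38.8 after CRL1505 and 994.6 ± 99.8 after CRL1506. The CRL1505 + LPS signal was the lowest and the CRL1506 + LPS signal the highest. The log2 ratio to LPS was -0.63 ± 0.21 after CRL1505 and 0.32 ± 0.20 after CRL1506, and between the strains -0.95 ± 0.21 (1.93-fold). These are under the threshold, and over the other normalizations they ranged from -1.13 to -0.33, from 0.12 to 0.41 and from -1.35 to -0.45. The second probe (A_52_P393314, chr5:123134194-123134253, for NM_011027) did not show this pattern. It read 452.2 ± 45.8, 343.8 ± 35.0 and 459.0 ± 46.5, with log2 ratios to LPS of 0.13 ± 0.21 and 0.11 ± 0.21. The third (A_51_P506733, for NM_001038845) has its 60 bases split over 2886 bases of mm9, chr5:123120528-123123413. It was dim, at 47.56 ± 9.02 with LPS alone, 25.36 ± 7.50, not above background, after CRL1505 and 77.94 ± 11.0 after CRL1506. Its log2 ratio to LPS was 0.80 ± 0.34 after CRL1506. After CRL1505 it was bounded at a log2 ratio of -0.16 or lower to LPS and of -0.96 or lower to CRL1506 + LPS. The direction of the brightest probe after CRL1505 is thus given by 2 of 3 probes, 1 of them by a bound of only -0.16. That bound was not followed over the other normalizations.

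*P2rx4*, which encodes a channel found on lysosomes as well as on the cell surface, follows *P2rx7* on chromosome 5, with 25497 bases between their nearest probes. Its 3 probes are shown because 1 of them differs from the rest.
P2rx4 probe A_55_P2183015: gcttttcctttcataagggctgtgttgaaa
P2rx4 probe A_55_P2104835: tgtttcttatggcgctgggggcaagactta
P2rx4 probe A_55_P2736460: ttgtcattggaagagggccacatgcagcca
The brightest (A_55_P2183015, chr5:123178983-123179042) read 13060 ± 1310 with LPS alone, 11400 ± 1140 after CRL1505 and 12300 ± 1230 after CRL1506. The 3 signals were close to each other, with log2 ratios to LPS of 0.33 ± 0.20 after CRL1505 and 0.00 ± 0.20 after CRL1506. The former ranged from -0.18 to 0.62 over the other normalizations, so it has no settled sign. A neighbouring probe (A_55_P2104835, chr5:123179545-123179604) read 175.1 ± 18.8, 106.2 ± 12.2 and 165.8 ± 17.9, with log2 ratios of -0.20 ± 0.23 and 0.01 ± 0.22. The probe A_55_P2736460 (chr5:123159750-123159809), which is assigned to the transcript ENSMUST00000195963, read 140.1 ± 15.7 with LPS alone, 83.00 ± 10.5 after CRL1505 and 530.3 ± 53.5 after CRL1506. It was high on the CRL1506 + LPS array alone, with a log2 ratio to LPS of 2.01 ± 0.22 (4.03-fold higher), against -0.23 ± 0.24 after CRL1505, and -2.24 ± 0.23 between the strains (4.73-fold lower with CRL1505). The ratios of this probe were not followed over the other normalizations. Neither these spots nor any of the 20 nearest were uneven. The CRL1506 + LPS array was also the one on which a probe of each of the 3 fibroblast markers passed the background call, although the brightest *Col3a1* probe did not, and their part in this value was not tested. With the mean over its probes in place of the brightest, *P2rx4* had a log2 ratio to LPS of 0.68 after CRL1506 and -0.03 after CRL1505. Between the strains it was 0.32 ± 0.20 with the brightest probe and -0.71 with the mean, so the value of this gene, and its sign, depend on the probe.

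**Figure D3:**
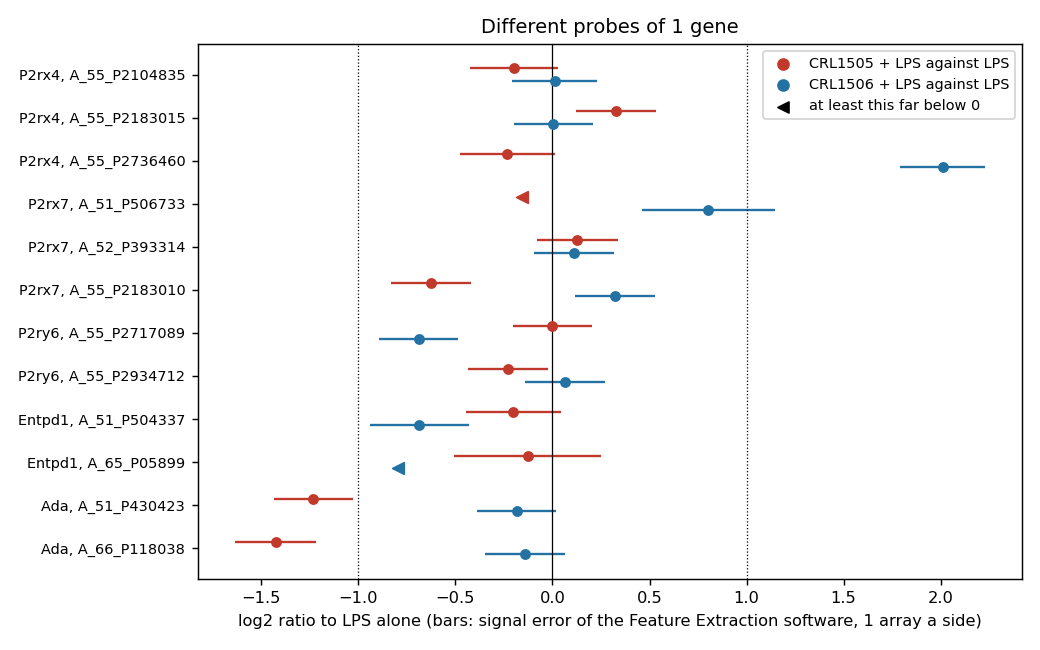
Log2 ratio to LPS of each probe of the genes with more than 1 probe above background. Red and blue are CRL1505 + LPS and CRL1506 + LPS, bars are the signal error of the Feature Extraction software with 1 array on each side, triangles are bounds at least that far below 0 and dotted lines mark 2-fold. The probes of *Ada* lie together for each strain, and 1 *P2rx4* probe lies apart from the others at 2.01.

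The enzymes were read in the order in which they act. *Entpd1* encodes CD39, which splits ATP and ADP to AMP. Its best probe (A_51_P504337, chr19:40814006-40814065) read 132.6 ± 15.0 with LPS alone, 80.18 ± 10.1 after CRL1505 and 77.36 ± 10.5 after CRL1506. Both treated arrays read below the LPS array before scaling. After it, the log2 ratio to LPS was -0.20 ± 0.24 after CRL1505, ranging from -0.71 to 0.09, and -0.69 ± 0.26 (1.61-fold lower) after CRL1506, ranging from -0.94 to -0.41. A second probe (A_65_P05899, chr19:40813463-40813522) went the same way. It read 61.18 ± 9.83 with LPS alone, 38.94 ± 8.05 after CRL1505 and 16.62 ± 7.95, not well above background, after CRL1506, which bounds the log2 ratio to LPS after CRL1506 at -0.80 or lower. The third probe was not well above background. *Nt5e*, which encodes CD73, the enzyme that makes adenosine from AMP, had signals between 6.921 and 9.616 on its 2 probes and no ratio. A difference in *Nt5e* was thus not detectable here.

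*Ada*, which encodes the deaminase that turns adenosine into inosine, was lower with CRL1505. Its 2 probes are shown because they read different stretches of the gene and gave the same result.
Ada probe A_51_P430423: cccaggggacttgacaatcatgcacatgaa
Ada probe A_66_P118038: atggttatcacaccatcgaggatgaagctc
The brighter (A_51_P430423, chr2:163552581-163552640, minus strand) read 6371 ± 637 with LPS alone, 1886 ± 189 after CRL1505 and 5263 ± 526 after CRL1506. The CRL1505 + LPS signal was far below both others, which were close to each other. The log2 ratio to LPS was -1.23 ± 0.20 after CRL1505 and -0.19 ± 0.20 after CRL1506, and between the strains -1.05 ± 0.20. The ratio after CRL1505 ranged from -1.74 to -0.94 and the one between the strains from -1.45 to -0.55, each past 2-fold in 6 of 7 other normalizations. The other probe (A_66_P118038, chr2:163556042-163556101) read 962.3 ± 96.5, 249.2 ± 25.7 and 820.0 ± 82.3, with log2 ratios to LPS of -1.43 ± 0.21 (2.69-fold lower) and -0.14 ± 0.20. It was thus as low with CRL1505 as the first probe. Since the CRL1505 + LPS array was alone on its slide, the *Ada* ratios after CRL1505 and between the strains have no value within a slide. Those after CRL1506 are within 1 slide.

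**Figure D4:**
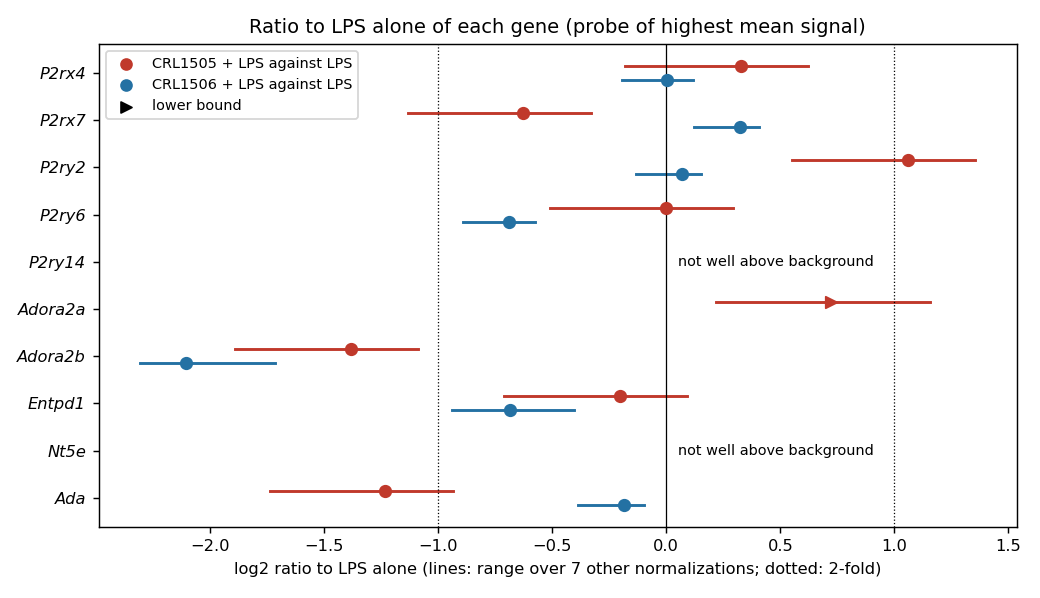
Log2 ratio to LPS of each gene, from the probe with the highest mean signal. Points are the values reported, horizontal lines the range over 7 other normalizations, the triangle a lower bound and dotted lines 2-fold. The ranges of *Adora2b* lie past 2-fold for both strains, and that of *Ada* after CRL1505 reaches from -1.74 to -0.94.

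The sequence before the start of transcription was looked at for the 3 genes past 2-fold. RefSeq promoter entries of GRCm38.p6 matched 8 of the 10 genes, with 14 entries. In the 250 bases before each start, both strands were searched for GGGCGG (GC box), TGANTCA (AP-1), GAGGAAG (ETS), TGACGTCA (CRE), TACGTG (HRE), and for an NF-kB-like and an ISRE-like motif. GC boxes were in 6 of the 14 entries, from *Ada*, *Adora2b*, *Nt5e*, *P2rx7* and *P2ry2*, and in 32.7% of all 32851 promoters. AP-1 letters were in 3 entries, from *P2rx7* and *P2ry14*, and in 6.75% of all promoters, and ETS letters in 2, from *Entpd1* and *P2ry14*, and in 10.6%. The other 4 motifs, held by between 1.41% and 2.98% of all promoters, had no match in these entries. These are letter matches in a window and no sites. The sequences run to the base before the start, with GC boxes of either strand in capitals; *Adora2b* has 6 of them, *Ada* 1 and the *P2ry2* entry shown, which overlaps a further one, 4.
Adora2b, chr11:62248734-62248983, plus strand: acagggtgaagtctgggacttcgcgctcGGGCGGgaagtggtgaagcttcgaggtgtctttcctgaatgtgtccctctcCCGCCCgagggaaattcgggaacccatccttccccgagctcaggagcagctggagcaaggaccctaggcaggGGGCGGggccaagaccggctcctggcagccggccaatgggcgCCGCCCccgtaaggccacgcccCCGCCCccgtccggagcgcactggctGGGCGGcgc
Ada, chr2:163750240-163750489, minus strand: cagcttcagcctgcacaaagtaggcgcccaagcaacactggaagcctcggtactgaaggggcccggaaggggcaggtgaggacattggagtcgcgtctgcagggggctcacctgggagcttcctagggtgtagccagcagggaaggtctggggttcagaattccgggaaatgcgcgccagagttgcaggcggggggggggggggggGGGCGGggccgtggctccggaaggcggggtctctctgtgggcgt
P2ry2, chr7:101011999-101012248, minus strand: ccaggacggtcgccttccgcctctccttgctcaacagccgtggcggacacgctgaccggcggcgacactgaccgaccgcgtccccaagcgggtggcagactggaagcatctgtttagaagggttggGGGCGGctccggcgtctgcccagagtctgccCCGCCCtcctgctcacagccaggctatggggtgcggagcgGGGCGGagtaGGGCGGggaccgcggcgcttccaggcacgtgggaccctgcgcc

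Of 47 other genes of purinergic signaling and purine turnover that were listed, 46 were on the array. For CRL1505 + LPS, 34 could be compared with LPS, and 3 were at least 2-fold higher and 2 lower. For CRL1506 + LPS, 36 could be compared, and 2 were higher and 1 lower. Between the strains, 32 could be compared, and 2 were higher and 3 lower with CRL1505. Of all genes compared, 18.3%, 9.19% and 16.5% were past 2-fold in the same order, either way. The median size of log2 ratio of the listed genes was 0.39, 0.24 and 0.32, near that of all genes. Of the 10 other listed *P2rx* and *P2ry* genes, 5 could be compared with LPS after CRL1505, 6 after CRL1506 and 5 between the strains. With the scaling used here, 0 of these were past 2-fold. Under other normalizations some were. *P2rx1* reached -1.22 and *P2rx3* 1.39 for CRL1505 against LPS, the latter a bound from an uneven spot of the CRL1505 + LPS array. *P2ry12* reached -1.26 for CRL1506 against LPS and 1.14 between the strains. The genes past 2-fold with the scaling used here had other roles and are described below. With so few receptors compared, a difference between roles was not tested.

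*Slc28a2* encodes a concentrative transporter that takes up adenosine and other purine nucleosides. It read 1052 with LPS alone, 3354 after CRL1505 and 2061 after CRL1506, with a log2 ratio to LPS of 2.20 after CRL1505 (range 1.69 to 2.49) and 1.06 after CRL1506 (range 0.86 to 1.15). It was higher in both treated conditions, and 1.14 higher on the log2 scale with CRL1505 than with CRL1506 (range 0.74 to 1.63). *Pnp*, the phosphorylase that acts on inosine after adenosine deaminase, read 9016, 25810 and 9609 on the LPS, CRL1505 + LPS and CRL1506 + LPS arrays. It was high with CRL1505 alone, with a log2 ratio to LPS of 2.04 (range 1.53 to 2.34), against 0.18 after CRL1506, and lay 1.86 above CRL1506 + LPS (range 1.46 to 2.35). The probe of its close copy *Pnp2* was not well above background, and how far the *Pnp* probe reads that copy was not tested. *Xdh*, which encodes xanthine dehydrogenase, the enzyme that makes uric acid, read 1280, 1932 and 1397 and had a log2 ratio to LPS of 1.12 after CRL1505 (range 0.61 to 1.41), with 1.03 on a second probe, and 0.22 after CRL1506. It was thus on the same side as *Pnp* in the CRL1505 + LPS array.

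*Panx1*, which encodes a channel through which ATP leaves the cell, read 3309, 1107 and 3009. It was low with CRL1505, at a log2 ratio to LPS of -1.06 (range -1.56 to -0.76) and to CRL1506 + LPS of -1.01 (range -1.41 to -0.51), and at -0.05 for CRL1506 + LPS against LPS, where a second probe gave -1.04. The largest bounds came from uneven spots. *Enpp3*, an ectonucleotidase, read 112.4 on an uneven spot of the LPS array and 6.697 and 11.21, not well above background, on the CRL1505 + LPS and CRL1506 + LPS arrays, at least 2.64-fold and 3.19-fold lower. As log2 ratios these bounds are -1.40 (range over the other normalizations -1.91 to -0.52) and -1.68 (range -2.04 to -0.87), so both come inside 2-fold under some of them. *Slc28a3*, a further concentrative nucleoside transporter, read 121.2 on an uneven spot of the CRL1506 + LPS array and 15.22 and 8.969, not well above background, on the LPS and CRL1505 + LPS arrays, which bounds it at least 3.87-fold higher after CRL1506 than with LPS alone and at least 3.03-fold lower after CRL1505 than after CRL1506. The log2 bounds are 1.95 (range 0.77 to 2.04) and -1.60 (range -1.998 to -0.49), and these too come inside 2-fold under some normalizations. *Entpd7*, named after its values were seen, completes the count between the strains, at least 2.32-fold lower with CRL1505, a log2 bound of -1.21 that ranged from -1.61 to -0.35.

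**Figure D5:**
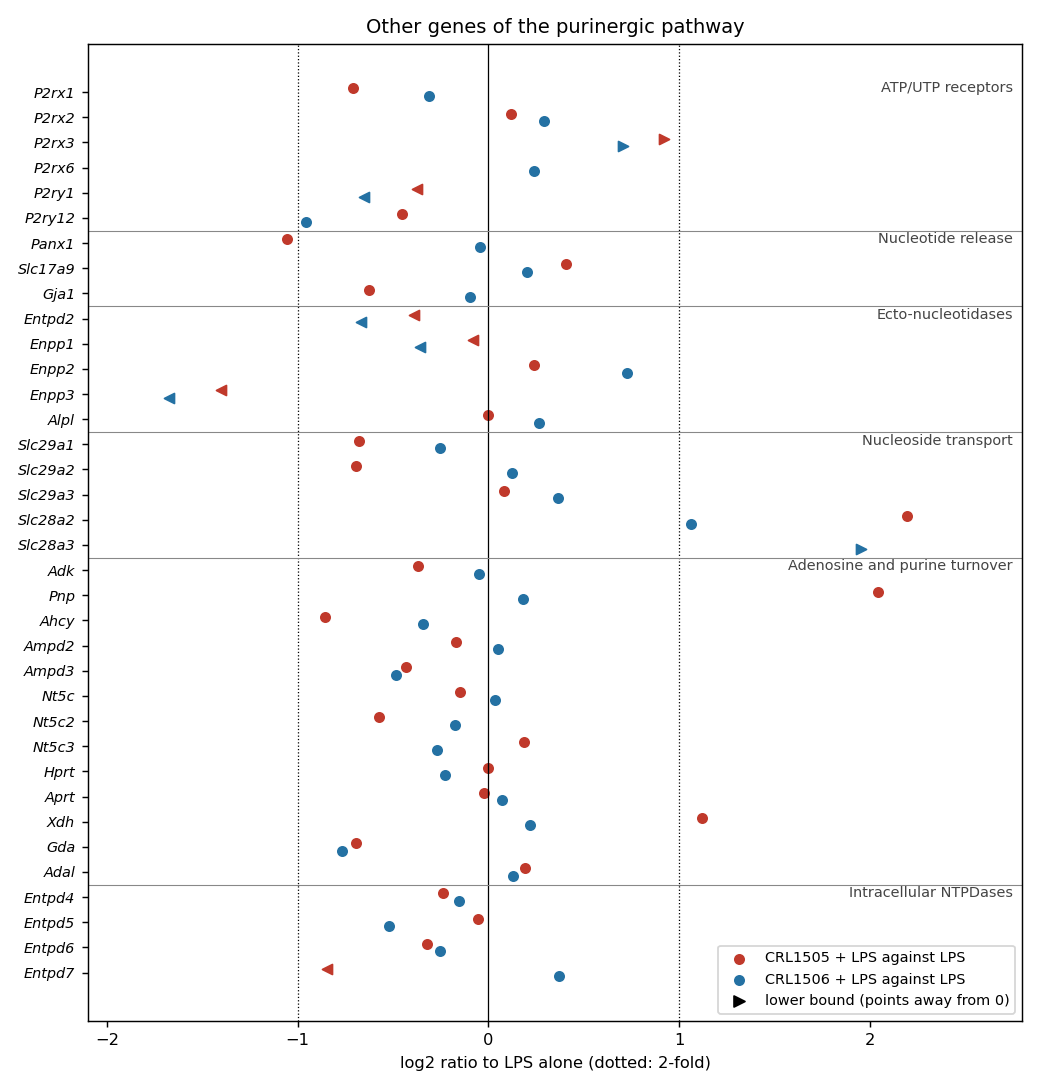
Log2 ratio to LPS of the other listed purinergic genes that could be compared, by role. Red and blue are CRL1505 + LPS and CRL1506 + LPS, 1 array each, triangles are lower bounds that point away from 0 and dotted lines mark 2-fold. *Slc28a2* lies at 2.20 and 1.06, *Pnp* at 2.04 after CRL1505 only, and the nucleotide receptors that could be compared lie inside 2-fold with the scaling used here.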

How the data were processed

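Total RNA of RAW macrophages was hybridised to 1-colour (Cy3) SurePrint G3 Mouse GE arrays, 1 array for each of 3 conditions. The authors deposited Feature Extraction output (version 12.0.3.1 in the files), in which the processed signal is an intensity with background subtracted and not normalized between arrays, with an error per spot. A further deposited table, of log2 values that had been normalized between arrays, served as an alternative.

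Each array's log2 processed signal was shifted by the 75th percentile of its gene spots. Spots marked as outliers were left out, repeats were averaged and the probe with the highest mean stood for a gene. Where 1 side alone was well above background, the ratio is a bound against the lowest signal well above background (33.3, 29.6 and 33.1 for LPS, CRL1505 + LPS and CRL1506 + LPS) or the probe's own signal, if higher. With 1 array per condition no test was run, and the number of arrays limits precision. The spot errors were propagated to ratios. By rule, the text names all 10 genes, the other purinergic genes measured past 2-fold and the largest bounds. The 7 other normalizations were shifts by the median, by that percentile among probes detected on every array and by spike-in probes, quantile, cyclic loess, normexp with an offset of 50, and the deposited log2 table. The filter on dim probes, the probe of a gene, outlier and uneven spots and the threshold (1.5-fold, 4-fold) were varied too. Uneven spots are those with a pixel mean over 0.2 above the pixel median on the log2 scale. Members, lists and alternatives were chosen with earlier results of these data known. Positions of probes were read from the files (mm9), and exon annotation of that build was not used here. Python 3.11.15, pandas 2.3.3, NumPy 2.4.6, R 4.3.3 and limma 3.58.1 were used, and the procedure was tested on simulated data.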

Additional observations from a re-analysis of the deposited data

Results flagged for a closer look

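*P2rx7* lay on opposite sides of LPS in the treated conditions, with a log2 ratio of -0.63 after CRL1505 and 0.32 after CRL1506. The difference was not tested, since each condition has 1 array, and both ratios use the same LPS array. Of its 3 probes, the second gave 0.13 and 0.11. The third, which was dim, gave a bound of -0.16 or lower after CRL1505 and 0.80 after CRL1506.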

How the results depend on the processing

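Over the other settings, the log2 ratios of the 10 genes gave 95 values for CRL1505 + LPS against LPS, 84 for CRL1506 + LPS against LPS and 95 between the strains. Of these, 69, 78 and 73 stayed within the median SD between a gene's probes (0.23, 0.22 and 0.32), 26, 6 and 22 moved by more, and 0 ratios past 2-fold changed sign. No spot of the 10 genes was an outlier or uneven, so the settings for such spots could not move a ratio. Nor could the settings for dim probes, for genes above background on every array. The counts within the SD hold these values and so overstate the stability. The count of the 10 genes past 2-fold was 3 for CRL1505 + LPS against LPS (1 higher, 2 lower), 5 at 1.5-fold and 0 at 4-fold. It was 4 under cyclic loess and 2 under the percentile over probes detected on all arrays, normexp and the deposited log2 table. The 3 genes were 2 higher and 1 lower under the median shift, and 0 higher and 3 lower under spike-in scaling. For CRL1506 + LPS it was 1, and 3 at 1.5-fold. Between the strains it was 1 (0 higher and 1 lower with CRL1505, *Ada*), with 4 under the median shift (4 higher and 0 lower, *Ada* then at -0.55 and inside 2-fold), 2 under quantile, cyclic loess, the percentile over probes detected on all arrays and spike-in scaling, 5 at 1.5-fold and 0 at 4-fold.

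The count of the other purinergic genes for CRL1505 + LPS against LPS was 5 (3 higher, 2 lower), with 12 under spike-in scaling (2 higher, 10 lower), 12 without the filter on dim probes, 13 at 1.5-fold and 2 at 4-fold. For CRL1506 + LPS against LPS it was 3, with 1 under normexp, the deposited log2 table, probes above background on all arrays and without uneven spots, 7 without the filter, 9 at 1.5-fold and 0 at 4-fold. Between the strains it was 5, with 3 under quantile, normexp and probes above background on all arrays, 2 with the deposited log2 table, 10 without the filter and 0 at 4-fold.

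Of all genes, 2861, 1497 and 2600 were past 2-fold in the same order. These counts were 1836, 756 and 1516 under normexp, 1765, 705 and 1495 with the deposited log2 table, 5905, 3391 and 5842 without the filter, 1868, 759 and 1698 for probes above background on all arrays, 5657, 3401 and 5736 at 1.5-fold and 707, 354 and 545 at 4-fold, and 3952 between the strains under the median shift. The share higher among them was 61.7% for CRL1506 + LPS, 43.5% under the median shift and 51.5% under quantile. Between the strains it was 54.7%, 89.0% under the median shift, 23.1% under spike-in scaling, 36.5% under the percentile over probes detected on all arrays, 69.3% under normexp and 66.1% under cyclic loess. The median log2 ratio of all genes between the strains was 0.58 under the median shift and -0.31 under spike-in scaling, and for CRL1506 + LPS it was -0.26 and -0.17. The cause of these changes was not tested. No paired analysis was possible because each condition has 1 array. Dim signals limit *Adora2a*, *P2ry14* and *Nt5e*.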
